A study of Homo sapiens with 16 samples.

Results

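The bases described here were called as reproducible m6A sites in every one of 3 glioma cell groups, leaving out those at the 5′ end of a gene. Of 43037 bases in any of the 3 deposited lists of reproducible sites, 8960 stood in all 3 at the same position and strand. Another 1089 of those lay within 50 nt of the 5′ end of the gene span holding them and were left out, so 7871 member bases remained, 87.8% of the shared bases and 18.3% of all listed bases. They made up 24.6% of the gene-internal sites listed in U87, 23.6% of those in U87-R and 80.2% of those with STM2457.

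The line U87 MG was grown from a human glioma. Its derivative U87-R resists temozolomide and was kept in medium with 50 µM temozolomide, an alkylating drug used against glioma. The m6A-eCLIP libraries numbered 3 for U87 and 3 for U87-R, and another 2 came from U87-R given 50 µM STM2457 for 96 hours. The U87 and untreated U87-R cells carried a DMSO control label, and the resistant line, with or without STM2457, differs from U87 both in its history and in the temozolomide in its medium. The 8 matched input samples were not analysed here. Separate cultures are not named in the labels, and a p-value here reflects only how far the libraries of a group lie apart, which may be technical.

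N6-methyladenosine (m6A) is a common internal mark of messenger RNA, written mainly by the METTL3 and METTL14 complex and usually placed near stop codons, in long exons and in 3′ ends. STM2457 inhibits the catalytic activity of METTL3. METTL16 is a separate m6A methyltransferase that acts on the RNA of MAT2A, and antibodies to m6A also bind m6Am, a mark on the first transcribed adenosine that is written by PCIF1.

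The members were chosen by their scores, since a base entered a list only with a score of at least 10 in 2 or more libraries of the group. The score has no stated formula and no read counts stand beside it, so depth is unknown, and more methylation of an RNA and more of that RNA cannot be told apart in these bulk samples. Bases that fell under 10 with STM2457 are absent from the members by construction. Score differences between groups are therefore a description of the members, set beside the same measure over all 188742 bases tested, and support nothing by themselves. At the edge of the rule, members of WNT7B and XIAP had 10.0 and 10.2, and 10.1 and 10.8, in the STM2457 libraries. Bases of CBFA2T2 and RAPH1 stayed out with 9.998 in 1 of the 2 libraries. At the distance limit, members of ITGA5, ETFA and EBP lay 51 nt from the 5′ end, and bases of TAF13, ZNF281 and BAD at 50 nt were left out.

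The label of gene-internal sites held for most members but not for all. Of the 7871, 7478 (95.0%) lay in 1 gene of their strand, 134 in several, 142 in a gene of the other or an unknown strand and 117 in no gene span. Many genes have more than 1 annotated start, and 339 members lay from 10 nt before to 50 nt after a RefSeq start on their strand, so that for them an alternative start is annotated beside the called base. A further 174 lay up to 250 nt from a start, 7067 lay farther from every start in the table, and 291 lay where no start table could be read. The table is not complete: 1300 of the 7067 were not in 1 gene with a tabled start, and 23 of the 7067 lay within 250 nt of the 5′ end of a gene span. These classes are called near a start, between and far from starts below.

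Sequences around the called base are shown for members with high scores. Sequence could be read only inside RefSeq promoter windows of GRCh38.p14, which cover 250 bases before to 50 after each start, for 441 members, and all 441 had A at the called base. The first 4 lines are the highest-scoring readable members far from starts among those with the m6A motif, 1 per gene, and the last 4 are the highest-scoring near a start, also 1 per gene and with no choice by motif. The lines are therefore examples, and the shares over all readable members follow them. Capitals mark the called A with 2 bases on each side.
CEBPB, chr20:50192159-50192179, plus strand: cgccggcaAAACTttggcact
ZNF146, chr19:36235851-36235871, plus strand: cacaacctGGACTgaaatcat
UQCC3, chr11:62672272-62672292, plus strand: caaaccctGGACTgactgctt
ZSWIM8, chr10:73801629-73801649, plus strand: ggtagcacAGACTgacagctg
NAMPT, chr7:106284941-106284961, minus strand: ggtgaagcTCATTtttctcct
ZMIZ2, chr7:44748837-44748857, plus strand: cggcggctCCATTgtgccctc
CD63, chr12:55728999-55729019, minus strand: gggcgcagCTAGAgagccccg
H3-3A, chr1:226062712-226062732, plus strand: ccatctttCAATTgtgttcgc

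The motif searched was A, G or T, then A or G, then the called A, then C, then A, C or T, read on the strand of the called base. It stood at 15 of the 25 readable members far from starts (60.0%, Wilson 95% interval 40.7 to 76.6) and at 4 of 336 near a start (1.19%, 0.464 to 3.02). Of the 80 readable members between, 9 had it (11.25%). Of all 441 readable members, 336 of them near a start, 28 had it (6.35%). Over all A bases of the promoter windows it stood at 7.25%. A C directly before the called A was found at 234 of 336 members near a start (69.6%, 64.5 to 74.3), at 7 of 25 far from starts (28.0%), and at 29.9% of all A bases in the windows. The 25 readable bases are few of the 7067 far from starts, because so far from any start on its own strand a base can be read only in a window of the other strand. Of 18 readable members in 1 gene with a tabled start and over 250 nt from its 5′ end, 12 had the motif. Of the 339 members near a start, 144 were the annotated start base itself.

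Levels of the members differed by class and group. The median score over members near a start was 38.1, 45.4 and 43.6 in the U87 libraries, 52.7, 50.4 and 52.7 in those of U87-R, and 85.4 in both given STM2457. Far from starts, the group means of the library medians were 63.7 ± 2.63 (SD, n = 3) in U87, 70.4 ± 6.57 (SD, n = 3) in U87-R and 41.6 ± 1.75 (SD, n = 2) with STM2457. The STM2457 libraries were thus the highest of the 8 for members near a start and the lowest for members far from starts, with no overlap in either class. The members between gave 43.7 ± 4.62, 49.0 ± 1.05 and 64.4 ± 0.0593 in the same order (SD, n = 3, 3 and 2).

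**Figure D1:**
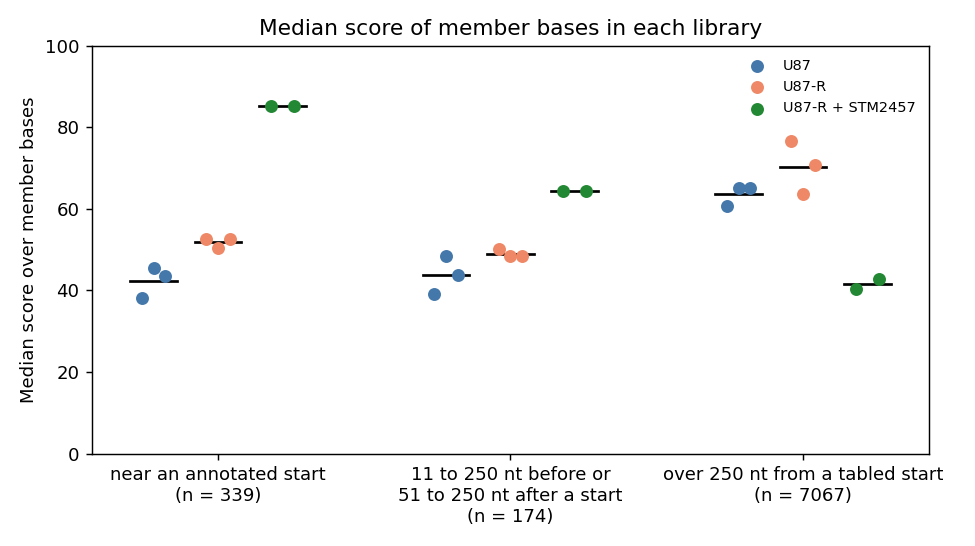
Median score of the members in each of the 8 libraries (points), by distance of the member from an annotated start, with the mean of each group as a bar. The STM2457 libraries lie at 85.4 near a start, above every other library, and at 40.4 and 42.8 far from starts, below every other library.

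With STM2457, limma's fit over all bases with Benjamini-Hochberg adjustment called 300 members higher (3.81%) and 2572 lower (32.7%) than in U87-R with DMSO, where 6.65% of all bases tested were called higher and 16.9% lower. The median change was -0.46 over the members and -0.998 over all bases tested, where an uncalled base counts as 0, on the log2 scale of score + 1, which understates the change of low scores. Over the 30839 bases called in all 8 libraries the order turned round, with -0.47 for the 7711 members among them and -0.28 for all. Leaving out STM2457 replicate 1 or 2 cut the 300 higher calls to 121 and 120. Each library was also centred on its median over the 30839 bases called in all 8 libraries. The same fit then called 635 members higher and 1209 lower. That put 34.4% of the calls on the higher side in place of 10.4%, and the median change was -0.08. Many of the lower calls below therefore hold for scores as deposited and not relative to that median of each library. The centred count is given beside each gene list and most named genes. It is to be read against the 1209 lower and 635 higher of all 7871 members.

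Near a start, 132 of 339 members were called higher and 2 lower, with a median change of 0.64. The STM2457 values lay above all U87-R values for 255 of them (75.2%), against 14.7% of all bases tested. The number called higher near a start was 50 and 53 when STM2457 replicate 1 or 2 was left out, and 77 and 80 without U87-R replicate 1 or 3. The 2 that fell were in PLAU, a secreted protease, by 0.65, and UBE2D3, a ubiquitin-conjugating enzyme, by 1.41. Far from starts, 118 of 7067 were called higher and 2474 lower, with a median change of -0.52. The number called higher far from starts was 50 and 48 when STM2457 replicate 1 or 2 was left out. There the STM2457 values lay below all U87-R values for 3761 (53.2%), against 27.6% of all bases tested. In the 5763 of them in 1 gene with a tabled start and over 250 nt from its 5′ end, 77 were called higher and 2048 lower, with a median of -0.53. Centring adds the same amount to every base, and gave medians of 1.02 near a start and -0.14 far from starts. With it, 343 members far from starts were called higher and 1167 lower.

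**Figure D2:**
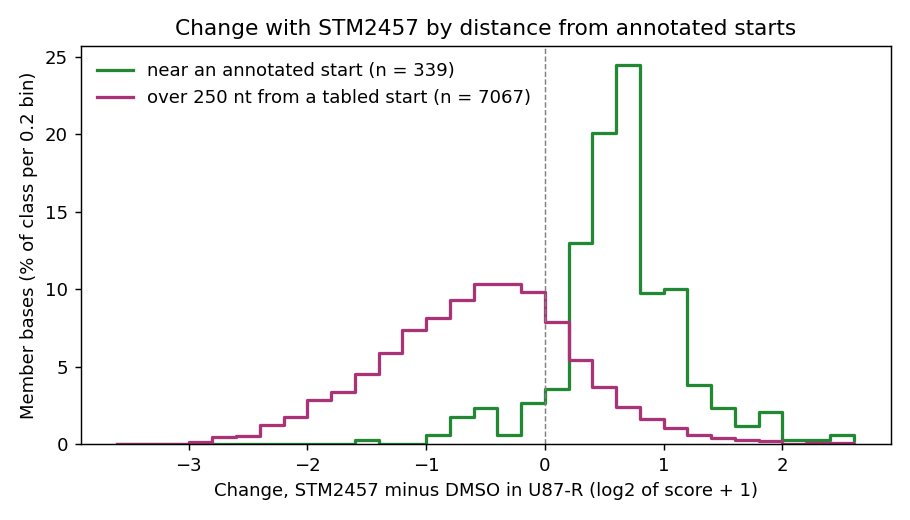
Change with STM2457 (log2 of score + 1, U87-R) of the 339 members near an annotated start and the 7067 far from starts, as the percentage of each class per bin. The medians are 0.64 and -0.52.

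The difference between the classes was also seen inside single genes. In 61 genes with members of both classes, 69 near a start and 134 far from starts, the near-start median exceeded the far median in 58. The median gap was 1.35 on the log2 scale (quartiles 0.77 and 1.78), and in 46 genes the near-start members were above and the far members below 0. With centred libraries the latter count was 42. MALAT1, an abundant nuclear long noncoding RNA, is one such gene. Its base near a start scored 79.3, 96.8 and 83.5 in U87-R, against 112 and 113 with STM2457, a change of 0.38. Its base 6144 nt from the 3′ end scored 145, 154 and 153 in U87-R, against 108 and 99.5 with STM2457, a change of -0.53.

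Near-start members with high scores came from varied genes. At ZMIZ2, which encodes a transcriptional coregulator, the start base scored 130, 107 and 112 in the U87 libraries. It scored 117, 125 and 127 in those of U87-R and reached 163 and 181 with STM2457. At CD63, a tetraspanin of endosomes and exosomes, the start base scored 118, 125 and 124 in U87-R, against 154 and 155 with STM2457. In both genes the STM2457 libraries were above all others. ATF5, a stress-response transcription factor, had 85.9, 75.8 and 84.1 at its start base in U87-R, against 124 and 126 with STM2457. SMAD1, which carries BMP signals to the nucleus, had the largest near-start change that passed, 1.99 ± 0.39 (SE), from 23.2, 24.8 and 13.1 to 99.1 and 66.2.

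The change with STM2457 varied with position along the gene. Over all members in 1 gene, those near a start included, the median change was 0.55 for the 79 members 51 to 100 nt from the 5′ end, 0.28 at 201 to 500 nt, -0.16 in the next bin, up to 1000 nt, and -0.54 beyond 20000 nt. Without members near or between starts it was -0.05 at 101 to 200 nt (9 members), -0.33 at 201 to 500 nt (88 members) and -0.56 beyond 20000 nt, so the positive values past 100 nt came with the members close to starts. Among the same members far from starts it was -0.66 within 500 nt of the 3′ end and -0.46 at 5001 to 20000 nt. Distances run along the gene with introns included, since exon and UTR annotation was not used here. Of the members in 1 gene, 7.41% (6.84 to 8.02) lay within 500 nt of the 3′ end, against 9.49% (9.07 to 9.92) of the 18170 such sites listed in both lines but not with STM2457.

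**Figure D3:**
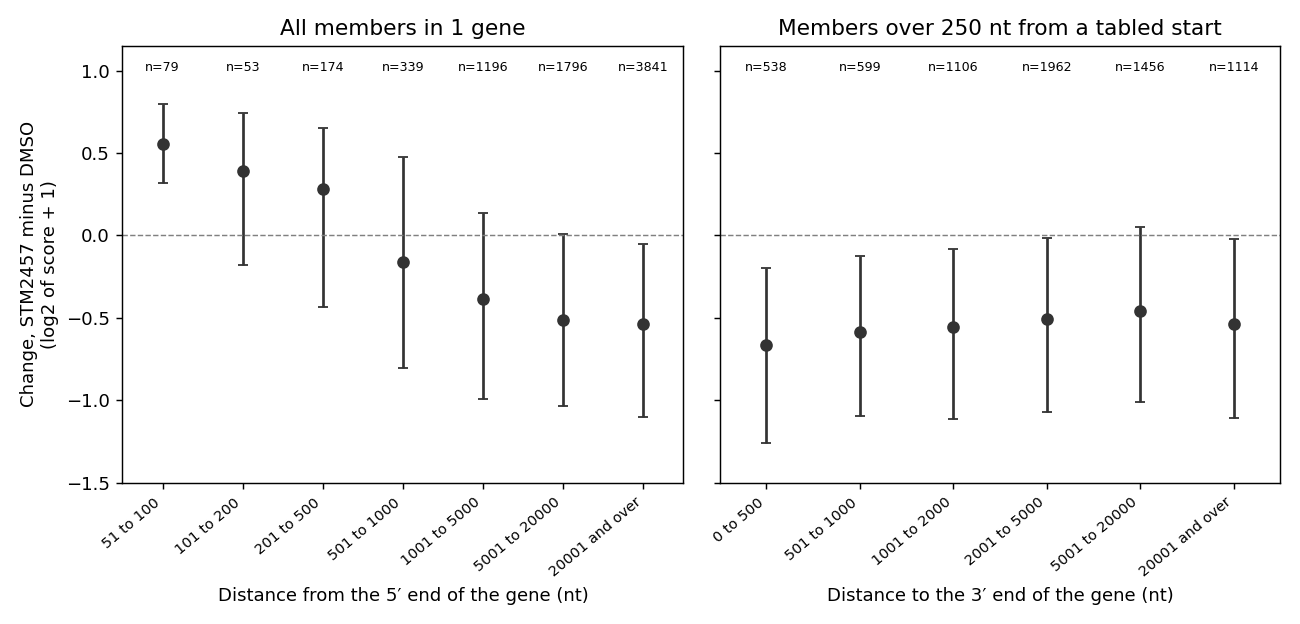
Median change with STM2457 (points, with quartiles as bars) by distance of the member from the 5′ end (left, members in 1 gene) and to the 3′ end (right, those of them far from starts). The medians run from 0.55 to -0.54 on the left and stay between -0.66 and -0.46 on the right.

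The sites listed in both lines but not with STM2457 numbered 18948 and had lower scores before treatment, with a median combined score in U87-R of 34.2 against 66.6 for the members. In neither STM2457 library were 46.3% of them called, while 1123 scored at least 10 in both and were still not listed. Of the members, 100% lay inside a reproducible U87 peak, 99.9% inside one of U87-R and 98.7% inside one of the STM2457 group, and the sites missing with STM2457 lay inside its peaks in 47.9%. The rule requires a call in at least 2 libraries of each group, and 7711 members (98.0%) were called in all 8. Another member lay within 50 bases of 23.1% of them, so neighbours can share reads and are not independent.

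MAT2A, the S-adenosylmethionine synthetase of most tissues, had all of its members higher with STM2457. All 3 of its U87-R sites, at 264, 379 and 679 nt from the 3′ end on chromosome 2, were members. The base at 679 nt scored 41.2, 47.2 and 47.8 in the U87 libraries and 53.7, 48.4 and 52.6 in those of U87-R. With STM2457 it scored 110 and 112, a change of 1.10 ± 0.13 (SE, limma adjusted p = 0.000978). The base at 379 nt changed by 1.02 (limma adjusted p = 0.00332) and the base at 264 nt by 0.52 (limma adjusted p = 0.0072). At all 3 the STM2457 libraries lay above every other library, and all 3 were also called higher with centred libraries. METTL16 itself held 3 members, 1 of them lower. METTL3 had 2 sites in U87-R but 0 in U87, so it could hold no member whatever its sites did with STM2457. With MTR, methionine synthase, the list of METTL16 and the S-adenosylmethionine cycle held 7 members, 3 higher and 2 lower (3 and 1 centred). The median of the list was -0.11, and 0.27 with centred libraries.

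Over all members far from starts 1.67% were called higher. Among genes with such members, WDR6, a tRNA methylation cofactor, had 3 of 14 higher, at changes of 0.52, 0.44 and 0.40. It also had 1 lower, at -0.51. COG8, a Golgi tethering subunit, had 2 of 2. With centred libraries the higher counts were again 3 and 2, and 0 of WDR6 were lower. The WDR6 bases at 49012419 and 49012428 and the COG8 bases at 69334882 and 69334906 are close neighbours that can share reads. The largest rises far from starts that passed were in IFT70A, a ciliary transport protein, and in the homeobox gene MEIS2. IFT70A went from 26.1, 21.6 and 13.3 in U87-R to 118 and 106 (2.46), and MEIS2 from 19.8, 28.1 and 6.9 to 77.4 and 81.1 (2.25). KRT10 and SLC33A1 followed at 1.99 and 1.96.

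Matrix and adhesion genes had 43 of 49 members called lower (87.8%, against 32.7% of all members), 0 higher and a median change of -0.58. With centred libraries 6 of the 49 were lower and 0 higher, against 1209 lower of all 7871 members, and the median was -0.20. The excess of lower calls was thus not seen with centring. TNC, an extracellular matrix glycoprotein of glioma, had 12 members and all 12 were lower. Its base 66569 nt from the 3′ end scored 175, 164 and 165 in the U87 libraries, 181, 199 and 178 in those of U87-R, but 111 and 109 after STM2457. COL6A3, a collagen VI chain, had 8 of 9 members lower, and ITGA3, an integrin subunit, 4 of 6. With centred libraries 1 of the 12 members of TNC was called lower, 0 of COL6A3 and 0 of ITGA3, though all 12 of TNC lay below 0.

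Some TNC members shared a spacing, which was picked after it was seen. All 12 lay within 888 bases of chromosome 9, from 115085968 to 115086855, and the commonest distance between 2 of them was 93 bases, found in 5 of 66 pairs. A multiple of 93 bases separated 21 of the 66 pairs, and 10 of the 12 members had a partner at such a distance, though other neighbours were spaced differently. Tenascin-C carries a row of EGF-like repeats, and whether these bases fall in them was not tested, since no exon annotation was used.

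Immediate early genes, which respond fastest to growth signals, had 77 members. Of these 35 were lower (45.5%, against 32.7% of all members) and 1 higher, and 18 and 5 with centred libraries. All 5 members of JUND, an AP-1 subunit, were called lower, 0 of them with centred libraries, and its top base scored 198, 197 and 190 in U87-R, against 118 and 135 with STM2457. The top base of JUN scored 159, 180 and 163 in U87-R, against 183 and 192 with STM2457, a change of 0.16 that did not pass. IER3, a stress-induced survival gene, had 2 members 18 bases apart that behaved differently in size. The first scored 125, 144 and 129 in U87-R, against 78.9 and 86.0 with STM2457, and the second 122, 140 and 125 and then 21.5 and 27.0, changes of -0.68 and -2.37. With centred libraries the changes were -0.30 and -1.99, and 1 of the 2 members was called lower.

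Members of several signalling ligands and stress genes were also called lower. The hypoxia, stress and metal list had 27 members, 18 lower (66.7%, against 32.7% of all members) and 3 higher (2 and 3 centred). The list of glioma stem and signalling ligands had 20, 10 lower (50.0%) and 0 higher (6 and 0 centred). With centring, the share of lower calls lay below that of all members in the stress list and above it in the ligand list. All 4 members of LIF, a cytokine that sustains stem-like glioma cells, fell, with changes from -0.58 to -2.02. In VEGFA, the main angiogenic ligand, 8 of 8 members fell, and in DDIT4, an mTORC1 inhibitor induced by stress, 3 of 3. With centred libraries 2 of LIF, 1 of VEGFA and 0 of DDIT4 were called lower. NOTCH2 and BCL2L1, an anti-apoptotic gene, each had 4 of 4 called lower, and 2 of 4 with centred libraries, where the named base of each lay slightly above 0. Chromatin regulators had 94 members, 33 lower (35.1%, near the 32.7% of all members) and 1 higher (16 and 2 centred), and the m6A writers, erasers and readers had 44, 11 lower and 0 higher, with a median change of -0.24, which turned to 0.14 with centred libraries, at 6 lower and 7 higher. DNA repair and alkylation genes had 10, 2 lower and 0 higher (0 and 0 centred). The receptor kinase and PI3K list had 58, 19 lower (32.8%, as over all members) and 2 higher, both in IRS2 (11 and 3 centred).

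The largest falls were at bases that were high in both lines. The base of WNT7B, a Wnt ligand, scored 117, 104 and 110 in the U87 libraries and 118, 118 and 112 in those of U87-R. With STM2457 it scored 10.0 and 10.2, a change of -3.40. SVEP1, an extracellular matrix protein, changed by -3.32 and CSGALNACT1, a chondroitin sulphate enzyme, by -3.19. A base of chromosome 8 in a gene of the other or unknown strand changed by -3.10, and TNXB, a tenascin, by -3.06. With these bases counted, WNT7B had 6 of 9 members called lower (3 centred), SVEP1 6 of 7, CSGALNACT1 4 of 4 and TNXB 3 of 3. The minimum score of the rule limits how far a member can fall.

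**Figure D4:**
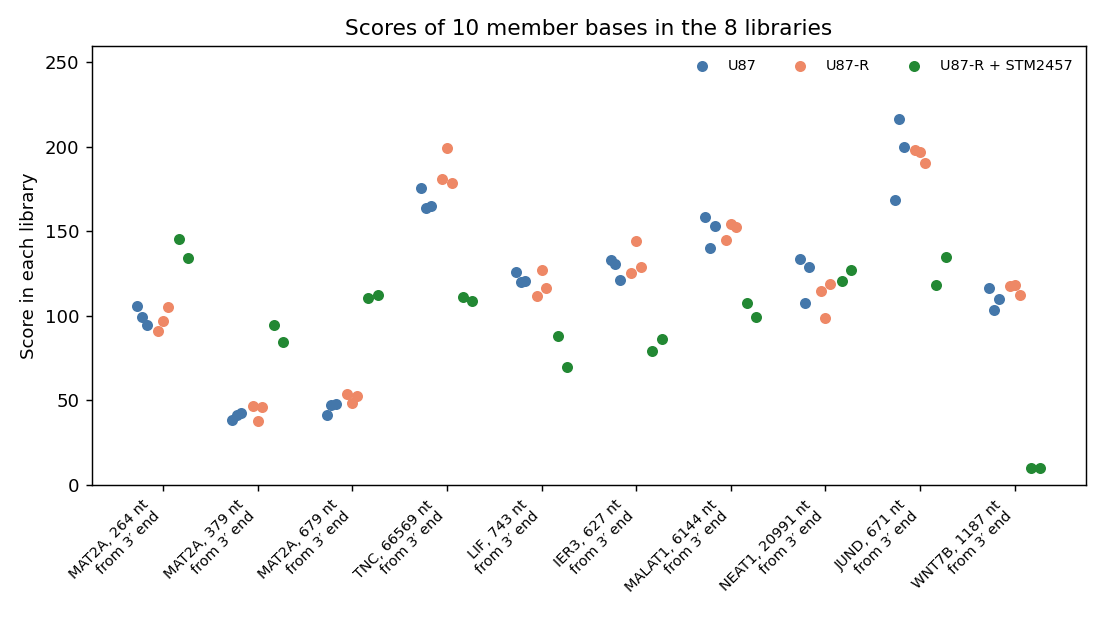
Score of 10 member bases in each library (points, colours as groups): the 3 of MAT2A, the base of highest mean score in TNC, LIF, IER3, MALAT1 and NEAT1, the JUND base of highest score over the 3 groups, and the WNT7B base with the largest fall. In MAT2A the STM2457 libraries lie above the others, in NEAT1 they lie within the range of U87, and in the other genes they lie below.

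The members fell in 3205 genes, 1456 of them with 1 member and 329 with 5 or more, and 7333 lay in protein-coding genes and 145 in long noncoding RNA genes. FAT1, an atypical cadherin, had most with 21, followed by AHNAK, a large scaffold protein, and ARHGAP35, a GTPase-activating protein, with 19 each, TUG1 with 17, TNKS1BP1 with 16, and PLEC and SON with 15. H6PD, IRS1 and MACF1 had 14 each. TUG1 stands among the long noncoding RNAs in the gene lists but has the gene type protein-coding, so its 17 members are in the 7333. In 2463 genes with at least 5 gene-internal sites in U87-R, a median of 22.2% were members, in 417 genes none was, and in 0 all were.

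Bases of 1 gene could differ in their change. In FAT1 the change ran from -2.14 to 0.35 over 21 members, with 7 lower (4 lower centred). MACF1, a cytoskeletal linker, had 11 of 14 lower and a median of -1.09 (6 lower centred), and IRS1, an insulin receptor substrate, 4 of 14 lower (1 lower and 1 higher centred). In PLEC, which encodes plectin, 3 of 15 rose and 3 fell (3 and 1 centred). The SD of the change within genes of 5 or more members had a median of 0.66, against 0.84 over all members, and 24 such genes had members called in both directions. NEAT1, a scaffold RNA of nuclear paraspeckles, had 3 members and none called.

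**Figure D5:**
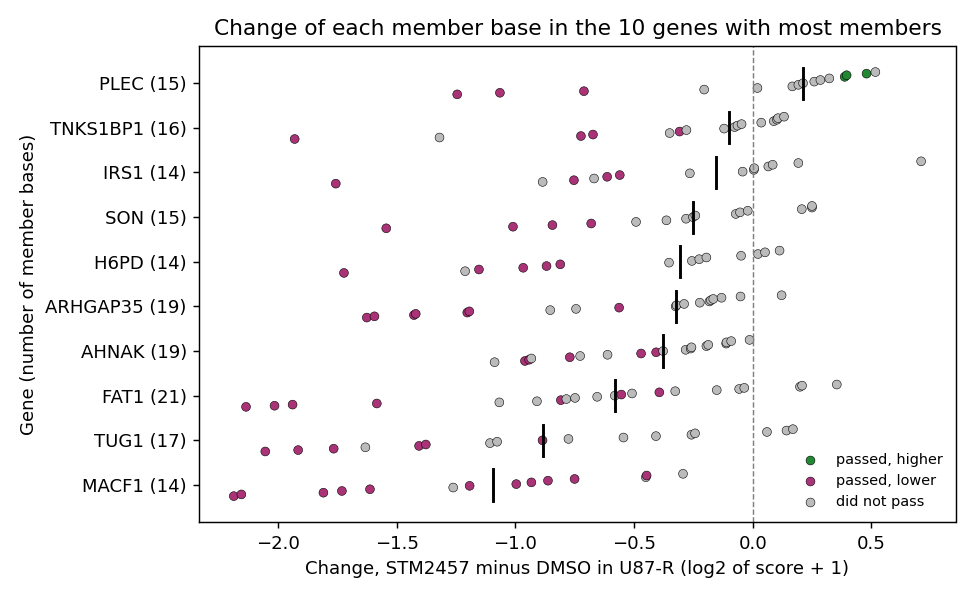
Change with STM2457 (log2 of score + 1) of each member in the 10 genes with most members, with the gene's median as a bar and colours for passing the fit. MACF1 members all lie below 0, and PLEC members lie on both sides of it.

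Between U87-R and U87 the members had a smaller median change than with STM2457. The fit called 0 members, against 0.00053% of all bases tested called higher and 0% lower, with 677 members at an unadjusted p under 0.05, 609 higher and 68 lower. That is 8.60% of the members, against 10.97% of all bases tested. The groups did not overlap at 1098 members that were higher in U87-R (13.9%, against 6.19% of all bases tested) and at 153 that were lower (1.94%, against 4.2%). These counts hold for scores as deposited. The median change was 0.11, against 0.05 over all bases, and -0.05 with centred libraries. A fit of only bases called in all 8 libraries called 1 member, higher in U87-R. Leaving out U87-R replicate 2 gave 24, 22 higher and 2 lower. The largest differences did not pass, among them a base of ZMIZ1, a transcriptional coregulator, with no call, 14.7 and 14.1 in the U87 libraries and 52.5, 31.4 and 78.7 in those of U87-R.

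The cell type of the libraries was checked by whether marker genes held called bases. Of 12 mesenchymal glioma and astroglial markers 9 had one in all 8 libraries, FN1 in 6, ANXA2 in 1 and S100B in none. GFAP counts among the 9 although its strand was not known. No neuronal, oligodendrocyte or epithelial marker did in all 8, 1 of 5 immune markers (CD68) and 1 of 4 endothelial markers (PECAM1) did. Immune CSF1R and endothelial KDR had called bases in 7 libraries, and neuronal SNAP25 and SYT1 in 6 and 5. No library had one for 2 of 6 neuronal, 3 of 4 oligodendrocyte, 3 of 5 immune, 1 of 4 endothelial and 4 of 4 epithelial markers. The libraries held between 105900 and 192697 called bases, fewest in the 2 with STM2457.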

How the data were processed

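Libraries were made from polyA RNA that was fragmented, immunoprecipitated and crosslinked, per the labels' protocols. STAR, UMI-tools and cutadapt and the build hg38 are named in the submitters' processing notes. Versions and the site caller: not given in the sources used here. Each library's list holds a deposited score per called base. For each group the authors made a list of reproducible sites with a combined score and the fraction of libraries in which each passed. Positions are printed 1-based. Gene spans, starts and sequence came from RefSeq tables (GRCh38.p14); 27305 genes had a strand in the table and 1791 took it from at least 5 called bases, 80% on 1 strand. log2(score + 1), with an uncalled base at 0, was fitted with limma 3.58.1 (R 4.3.3), 3 group means over 8 libraries, on the 188742 bases that 2 or more libraries of some group had called, adjusted p threshold 0.05. On simulated data for the STM2457 contrast, with 188742 bases, 1 of 100 changes of 1 log2 and 20 of 100 of 2 log2 were recovered. Only those bases changed in the simulation, far fewer than were called in the data, which makes its adjusted threshold stricter. The recovery in the real contrast is therefore not given by these counts. Alternatives were centring each library on its median over bases called in all 8 libraries, a pseudocount of 10, and bases in all 8 libraries. A replicate block and leaving out each library were the others. The members and gene lists were chosen with earlier results of these data known, and the start classes after seeing the scores. Named genes are the 10 with most members, the highest scores, the largest changes, up to 3 per gene list, and a few set genes; COG8, WDR6, PLAU, UBE2D3, CD63 and ZMIZ2 and the TNC spacing were picked after their values were seen. Some items that the rule names are not reported here.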

Additional observations from a re-analysis of the deposited data

How the results depend on the processing

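Centring the libraries moved the STM2457 calls to 1844 in all and 1510 far from starts, and the median changes to -0.077 over all members, 1.02 near a start and -0.14 far from starts. It reversed the median U87-R change to -0.045. Among named bases that had passed with STM2457, it reversed those of TNKS1BP1 (0.071), LHFPL2 (0.13), NOTCH2 (0.093) and BCL2L1 (0.016). Named bases that had not passed could also change sign, such as that of MACF1 (from -0.29 to 0.086). The cause was not tested. Leaving out each library gave 0 to 24 calls between the lines, 2089 to 2784 with STM2457, 53 to 124 near a start (134 with all libraries) and 1938 to 2518 far from starts. The medians then ranged from 0.10 to 0.14 between the lines, -0.53 to -0.40 with STM2457, 0.61 to 0.65 near a start and -0.59 to -0.46 far from starts. Bases called in all 8 libraries gave 1 call between the lines. Replicate numbers did not pair the libraries, with same-number correlations of 0.00382, 0.122 and 0.0386 between the lines, and with the replicate block 2188 members and 53 near a start were called. Limiting the far class to genes with a tabled start, chosen after seeing the data, gave 2125 calls and a median of -0.53. Within 20 bases of a peak lay 99.1% of members with STM2457, and 35.6% had another member within 100 bases. Of the named bases' alternatives 1624 kept their side of the threshold, 81 lost the call, 11 gained one and 4 reversed. A base that had not passed could change sign and still count among the 1624. Scores hold no depth, and 2 STM2457 libraries limit the spread estimate.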
